A study of Saccharomyces cerevisiae with 6 samples.

Results

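The genes described here belong to the thioredoxin and peroxiredoxin system of budding yeast. They were chosen by name, and all 10 were found among the 6416 rows of the transcript table and passed the filter on low values that left 6197 rows for testing. They are the thiol peroxidase genes TSA1, TSA2, AHP1, PRX1, DOT5 and HYR1, the sulfiredoxin gene SRX1, the cytosolic thioredoxin genes TRX1 and TRX2, and the thioredoxin reductase gene TRR1. The study compared RNA from 2 groups of Saccharomyces cerevisiae BY4741, a haploid laboratory strain of mating type a, with 3 libraries each. One group expressed NdeltaCit1-DS/AA (replicates 1, 2 and 3) and the other NdeltaCit1-DS/AA-H/G (replicates 4, 5 and 6), and the short names DS/AA and DS/AA-H/G are used below. Per the series' title, the protein is a mutant of the citrate synthase Cit1 without its presequence, the leader that directs it to mitochondria, and the question was what its accumulation does to the cell. Both groups carried such a form and both were fed galactose, the sole carbon source of their synthetic complete medium, so no library here stands for cells without it. The substitutions behind the names, the promoter and vector of the expressed forms, the number of clones and the growth phase are not stated in the labels used. Throughout, a value after ± is the SD over the 3 libraries of a group, unless marked SE.

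Peroxiredoxins are enzymes that reduce hydrogen peroxide and organic peroxides with a cysteine in their active site. The oxidised cysteine is reduced again by a thioredoxin, and the thioredoxin by thioredoxin reductase, which takes its electrons from NADPH. When peroxide drives the cysteine one step too far, sulfiredoxin brings it back at the cost of ATP. In yeast, the transcription factor Yap1 is known to switch on many of these genes under peroxide, and Msn2 and Msn4 act on general stress genes.

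In DS/AA, the minor cytosolic peroxiredoxin gene TSA2 was 5.945-fold higher than in DS/AA-H/G, the sulfiredoxin gene SRX1 1.74-fold higher and the mitochondrial peroxiredoxin gene PRX1 1.26-fold higher. The thioredoxin reductase gene TRR1 was 1.195-fold lower and TRX1 1.17-fold lower. The main cytosolic peroxiredoxin gene TSA1, the most abundant of the 10 per length, differed by 0.01 on the log2 scale. Thus 3 of the 10 genes rose, 2 fell and 5 were not called, where rose, fell and called mean a limma p under 0.05 after Benjamini-Hochberg adjustment over all 6197 tested genes. Of all tested genes 41.8% were called, of which those higher in DS/AA made 22.1% of the table and those lower 19.7%, so 5 of 10 is near the share of the whole table. The median change of the 10 genes was -0.01 on the log2 scale and that of all tested genes 0.01, and the median absolute changes were 0.15 and 0.14.

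TSA2 rose while its paralog TSA1 was not called, and the paralogs TRX1 and TRX2 are also set against each other below. The coding stretches around the longest run that each pair shares are therefore shown first (R64, sequence from RefSeq, coding strand, differing bases in capitals). TSA1 and TSA2 both span 591 bases and are identical at 464 of them (78.5%), and their longest common run is 14 bases. TRX1 and TRX2 are identical at 230 bases, 73.0% of the longer span, with a longest common run of 17 bases. Within these windows of 60 bases, TSA1 and TSA2 differ at 13 bases and TRX1 and TRX2 at 11.
TSA1, chrXIII:220208-220267, plus strand: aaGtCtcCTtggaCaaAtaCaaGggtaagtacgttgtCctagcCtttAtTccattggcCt
TSA2, chrIV:1365533-1365592, minus strand: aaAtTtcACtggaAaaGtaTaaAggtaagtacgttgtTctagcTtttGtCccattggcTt
TRX1, chrXII:231882-231941, minus strand: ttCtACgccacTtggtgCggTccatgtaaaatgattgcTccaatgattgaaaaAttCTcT
TRX2, chrVII:913093-913152, minus strand: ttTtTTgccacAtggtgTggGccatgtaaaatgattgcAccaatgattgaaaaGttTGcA
The differences recur along both pairs. Against the coding strand of all other rows, no exact run over 23 bases was found for any of the 10 genes. The longest were 23 bases between HYR1 and GPX2, 21 between TSA2 and ACM1 and 20 between TRR1 and TRR2. None of the 10 spans overlaps another row on either strand.

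The stretches before the 3 genes that rose and before TRX2, which was not called, show the motifs looked for in the 500 bases upstream of each coding start. These were TTACTAA, the element bound by Yap1 (TTAGTAA on the other strand), and AGGGG, the stress response element bound by Msn2 and Msn4 (CCCCT on the other strand). Only these exact letters were searched, and the names Yap1 element and stress response element stand for them below. Other sequences that Yap1 may bind were not looked for, so a gene without a match may still hold one. Matches are in capitals, and each stretch reads 5′ to 3′ in the direction of its gene, from RefSeq R64.
TSA2, chrIV:1365906-1366155, minus strand: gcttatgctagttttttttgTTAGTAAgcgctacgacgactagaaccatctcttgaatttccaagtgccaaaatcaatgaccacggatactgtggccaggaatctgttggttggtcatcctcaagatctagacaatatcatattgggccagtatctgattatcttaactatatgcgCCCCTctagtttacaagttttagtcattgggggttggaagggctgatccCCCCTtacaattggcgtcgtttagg
SRX1, chrXI:277960-278006, plus strand: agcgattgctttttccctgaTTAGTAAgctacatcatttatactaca
PRX1, chrII:101257-101292, minus strand: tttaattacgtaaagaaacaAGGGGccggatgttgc
TRX2, chrVII:913382-913464, minus strand: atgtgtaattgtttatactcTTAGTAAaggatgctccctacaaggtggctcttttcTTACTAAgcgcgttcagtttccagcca
The TSA2 stretch ends 244 bases before the coding start and holds 1 Yap1 element and 2 stress response elements. SRX1 has 1 Yap1 element, PRX1 has 1 stress response element, and TRX2 has 2 Yap1 elements. AHP1, which was not called, holds both motifs in its intergenic part, but its longer stretch is not shown. This form of the Yap1 element stood in 4 of the 10 upstream windows, those of TSA2, AHP1, TRX2 and SRX1. Of 6316 windows of the same length before protein-coding genes, 11.6% held it. A stress response element stood in 6 of the 10, those of TSA1, TSA2, AHP1, PRX1, TRX2 and SRX1, against 34.2% of all windows, and the matches of SRX1 and TRX2 and 1 of the 2 of TSA1 lie at or beyond the next gene upstream. DOT5, TRX1, TRR1 and HYR1 held neither sequence of letters. Of the 4 genes with this form of the Yap1 element, TSA2 and SRX1 rose while AHP1 and TRX2 were not called. A match does not show that a factor binds there, and the lack of one does not show that none binds.

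**Figure D1:**
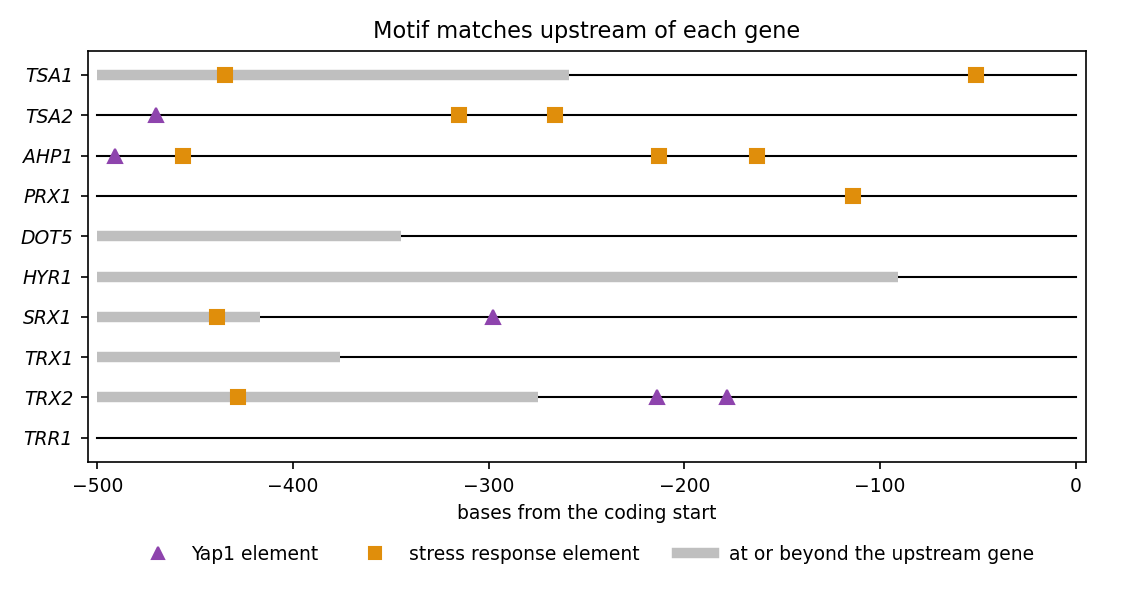
Matches to the Yap1 element (triangles) and the stress response element (squares) in the 500 bases before each coding start, in bases from that start. Grey bars mark the part of a window at or beyond the neighbouring gene upstream. TSA2 and AHP1 hold both motifs in their intergenic part, and DOT5, HYR1, TRX1 and TRR1 hold neither. Other sequences that Yap1 may bind were not searched.

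The values are taken as scaled estimated counts. They look like the authors' estimated reads per transcript divided by 1 factor per library, but the scaling method is not stated. Read numbers were not given. Taking the commonest low value of each library as the step of 1 read, the column totals correspond to 30277566 to 32702564 reads. By the same estimate, the rarest of the 10 genes in any library, SRX1, still had 245. Across all tested genes, libraries correlated at 0.9932 to 0.9945 within groups and 0.9828 to 0.9854 between them, and no library stood apart from its group. The genes of growth on galactose were abundant in both groups, with GAL1 at 403191 ± 9394 in DS/AA-H/G and 364648 ± 16827 in DS/AA. GAL1 and GAL7 were called lower in DS/AA (log2 changes -0.15 and -0.21), and GAL10 and GAL2 were not called. Of 5 mating type a markers 3 fell, where 19.7% of all tested genes did. STE2 went from 17212 ± 229 to 11209.9 ± 408, and BAR1 and STE6 fell too. The short pheromone genes MFA1 and MFA2 were near 0, at 2.33 ± 1.57 and 6.62 ± 3.88 in DS/AA. Of the mating type alpha markers, STE3 stood at 487 ± 36.8 in DS/AA and was higher there (log2 change 0.31), the MF(ALPHA)1 gene stood at 63.3 ± 11.5 and 50.1 ± 4.91 and was not called, and the MF(ALPHA)2 gene was near 0, at 1.01 ± 1.01. URA3, which BY4741 lacks, was present in every library and 2.54-fold lower in DS/AA, at 16114 ± 871 against 40821 ± 234 (limma adjusted p = 1.99e-10). HIS3, partly deleted in this strain, was higher in DS/AA, at 1860.1 ± 162 against 1155 ± 97.2. LEU2 and MET17 were looked for but were not among the tested genes. The part of URA3 in the results was not tested. The CIT1 row itself was 2.31-fold lower in DS/AA, at 522165 ± 23866 against 1205728 ± 11966, so the form of the protein and the amount of this transcript cannot be told apart in what follows. The labels do not say that the libraries of a group came from separate cultures, so all p-values rest on a spread between samples that may be technical only. Each value is an average over a culture, so a change in some cells cannot be told apart from a smaller one in all.

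TSA2 (YDR453C, chromosome IV, 1365072 to 1365662, minus strand) encodes a cytosolic peroxiredoxin with a pair of catalytic cysteines, the less abundant paralog of Tsa1. Its scaled counts in DS/AA were 1627, 1826 and 1630.0 in replicates 1 to 3, and those in DS/AA-H/G were 264, 299.8 and 288 in replicates 4 to 6. Each DS/AA library was far above each DS/AA-H/G library, and the spread within a group was 6.73% and 6.38% of its mean. The means were 1694 ± 114 and 284 ± 18.1, a log2 change of 2.57 ± 0.07 (SE, limma adjusted p = 1.7e-10), and the 95% interval of the fold was 5.33 to 6.63. By size TSA2 was the 36th largest rise of the 6197 tested genes. The two-sided exact permutation p was 0.1, below which 3 against 3 libraries cannot go, and it had the same value for PRX1, SRX1, TRX1, TRR1 and HYR1. In the authors' deposited table the log2 ratio of TSA2 was 2.58 with a q-value of 1.57e-215.

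TSA1 (YML028W, chromosome XIII, 220138 to 220728, plus strand) encodes the main cytosolic peroxiredoxin, which also acts as a chaperone. Its scaled counts were 37910.5, 40271 and 40850.4 in DS/AA and 38034, 39743 and 40742 in DS/AA-H/G, and the groups covered nearly the same range. The log2 change was 0.01 ± 0.04 (SE, limma adjusted p = 0.911), and the 95% interval of the fold, 0.949 to 1.06, leaves room for a change of a few percent either way. The spans of TSA1 and TSA2 have the same length, so their levels can be set against each other directly. TSA2 stood at 0.695%, 0.754% and 0.707% of TSA1 in replicates 4 to 6 of DS/AA-H/G, and at 4.29%, 4.53% and 3.99% in replicates 1 to 3 of DS/AA. TSA2 thus remained the minor transcript in all 6 libraries. The difference between the changes of both paralogs was 2.57 on the log2 scale, and no library of one group overlapped the other group (exact two-sided permutation p = 0.1, n = 3 each, the smallest possible).

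**Figure D2:**
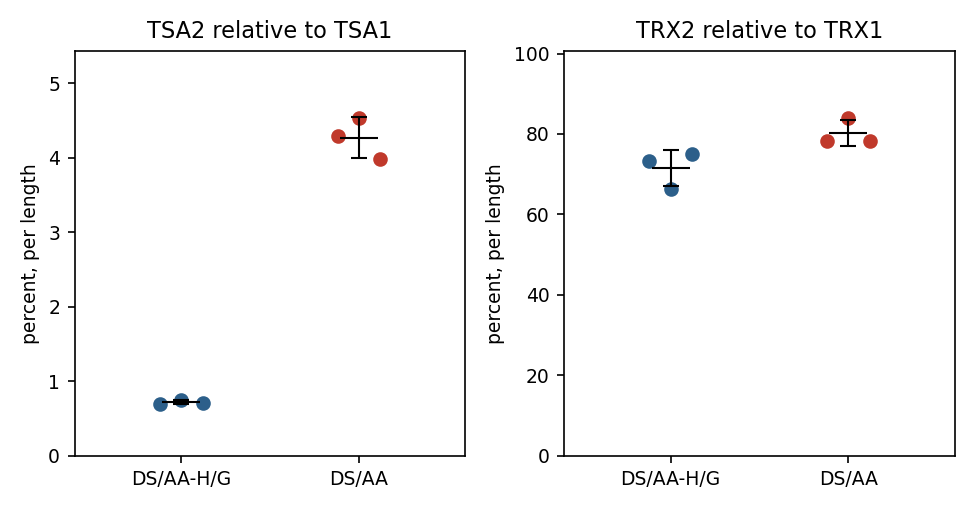
Level of TSA2 as a percentage of TSA1 (left) and of TRX2 as a percentage of TRX1 (right), per length of the coding span. Points are libraries, and the horizontal marks and bars are the mean and SD of 3 libraries. TSA2 stood at 4.27% ± 0.272 of TSA1 in DS/AA and 0.719% ± 0.0314 in the other group, and TRX2 at 80.2% ± 3.25 and 71.5% ± 4.59 of TRX1.

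SRX1 (YKL086W, chromosome XI, 278281 to 278664, plus strand) encodes sulfiredoxin, which repairs overoxidised peroxiredoxins such as Tsa1. Its scaled counts were 449, 471 and 509 in DS/AA and 289, 275 and 257 in DS/AA-H/G. The lowest DS/AA library lay well above the highest DS/AA-H/G library. The means were 476 ± 30.75 and 274 ± 16.1, a log2 change of 0.80 ± 0.09 (SE, limma adjusted p = 1.56e-05), with a fold of 1.52 to 1.98 at 95%. Relative to the gene of its substrate, TSA1, SRX1 stood per length at 1.07% ± 0.0992 in DS/AA-H/G and 1.85% ± 0.0633 in DS/AA. The next gene downstream, MDH1, 458 bases away on the same strand, also rose (log2 change 0.47), as did CYT2, the next gene upstream at 417 bases on the opposite strand (log2 change 0.20). Both were looked at because of their place, and 22.1% of all tested genes rose.

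PRX1 (YBL064C, chromosome II, 100371 to 101156, minus strand) encodes the mitochondrial peroxiredoxin, which works with a single catalytic cysteine. Its scaled counts were 9703.5, 10556.5 and 10404 in DS/AA and 7867, 7886 and 8503 in DS/AA-H/G. The groups did not overlap, although the gap was small beside that of TSA2. The means were 10221 ± 455 and 8085 ± 362, a log2 change of 0.34 ± 0.04 (SE, limma adjusted p = 6.58e-05). Its intergenic neighbour upstream, KIP1, was at -0.10 and was not called.

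The other thiol peroxidase genes were not called. AHP1 (YLR109W, chromosome XII, 368781 to 369311, plus strand) encodes a cytosolic peroxiredoxin with a preference for organic peroxides and was second to TSA1 per length. It stood at 14075, 12997 and 12401 in DS/AA and 12987, 12534 and 12175 in DS/AA-H/G, and the groups overlapped (log2 change 0.06 ± 0.05, limma adjusted p = 0.286). DOT5 (YIL010W, chromosome IX, 334882 to 335529, plus strand), which encodes the nuclear peroxiredoxin, stood at 1548, 1554 and 1593 in DS/AA and at 1534, 1589 and 1687 in DS/AA-H/G. The DS/AA libraries lay within the range of the DS/AA-H/G libraries, and the log2 change was -0.03 ± 0.05 (SE). The next gene upstream of DOT5, the cell wall gene TIR3, 345 bases away on the same strand, rose by 3.11 on the log2 scale. HYR1 (YIR037W, chromosome IX, 423128 to 423619, plus strand), also called GPX3, encodes the thiol peroxidase that passes the peroxide signal to Yap1. Its scaled counts were 2898, 2843 and 2848 in DS/AA and 3032, 3090.2 and 2979.6 in DS/AA-H/G. The groups did not overlap, but the log2 change of -0.08 ± 0.04 (SE) missed the threshold (limma adjusted p = 0.0869). Under quantile normalization HYR1 was called, at -0.127 with an adjusted p of 0.0132. Groups did not overlap for 6 of the 10 genes, 3 higher and 3 lower in DS/AA, where 52.7% of all tested genes had such groups, 27.8% higher and 25.0% lower.

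Summed per kilobase, the 6 thiol peroxidase transcripts were at 109919 ± 2023 in DS/AA-H/G and 116019.8 ± 1749 in DS/AA. The libraries spanned 107801 to 111831 and 114030.0 to 117313, without overlap. TSA1 made up 60.8% ± 0.999 of this sum in DS/AA-H/G and 57.85% ± 1.497 in DS/AA. The shares in DS/AA and in the other group were, for TSA2, 2.47% ± 0.144 and 0.437% ± 0.0229, and for PRX1, 11.2% ± 0.332 and 9.36% ± 0.288. AHP1 held 21.4% ± 1.68 and 21.5% ± 1.10. The gene with the largest fold change therefore remained a small part of the pool.

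On the reducing side of the system, TRR1 and TRX1 fell and TRX2 was not called. TRR1 (YDR353W, chromosome IV, 1183299 to 1184258, plus strand), which encodes the cytosolic thioredoxin reductase, stood at 14227, 14173 and 14590 in DS/AA and 16989, 16932 and 17469 in DS/AA-H/G. The groups were tight and did not overlap. The means were 14330.0 ± 227 and 17130.0 ± 295, a log2 change of -0.26 ± 0.03 (SE, limma adjusted p = 3.86e-05). With equal column totals the change was -0.203 and was still called.

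TRX1 (YLR043C, chromosome XII, 231702 to 232013, minus strand) and TRX2 (YGR209C, chromosome VII, 912913 to 913227, minus strand) encode the cytosolic thioredoxins, small proteins that pass electrons from the reductase to peroxiredoxins and other enzymes. The scaled counts of TRX1 were 1642.8, 1853.5 and 1991 in DS/AA and 2197, 2068 and 2122 in DS/AA-H/G. Its groups did not overlap, but the highest DS/AA library came close to the lowest of the other group. The means were 1829 ± 175.5 and 2129 ± 64.8, a log2 change of -0.22 ± 0.06 (SE, limma adjusted p = 0.0147). This call was lost without DS/AA-H/G replicate 4 (-0.20, adjusted p = 0.0545), with equal column totals (-0.168, adjusted p = 0.0532) and in limma without trend and robust moderation (adjusted p = 0.0745). TRX2 stood at 1298, 1570.5 and 1575 in DS/AA and 1624, 1385 and 1608 in DS/AA-H/G, and the groups overlapped (log2 change -0.06 ± 0.08, limma adjusted p = 0.631). Replicate 1 was the lowest DS/AA library for 7 of the 10 genes, all but AHP1, TRR1 and HYR1. Per length, TRX2 stood at 78.25%, 83.9% and 78.35% of TRX1 in DS/AA and at 73.2%, 66.3% and 75.1% in DS/AA-H/G. The ratios did not overlap, and the changes of TRX2 and TRX1 differed by 0.17 on the log2 scale (exact two-sided permutation p = 0.1, n = 3 each, the smallest possible). That test cannot pass 0.05 with these numbers of libraries.

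**Figure D3:**
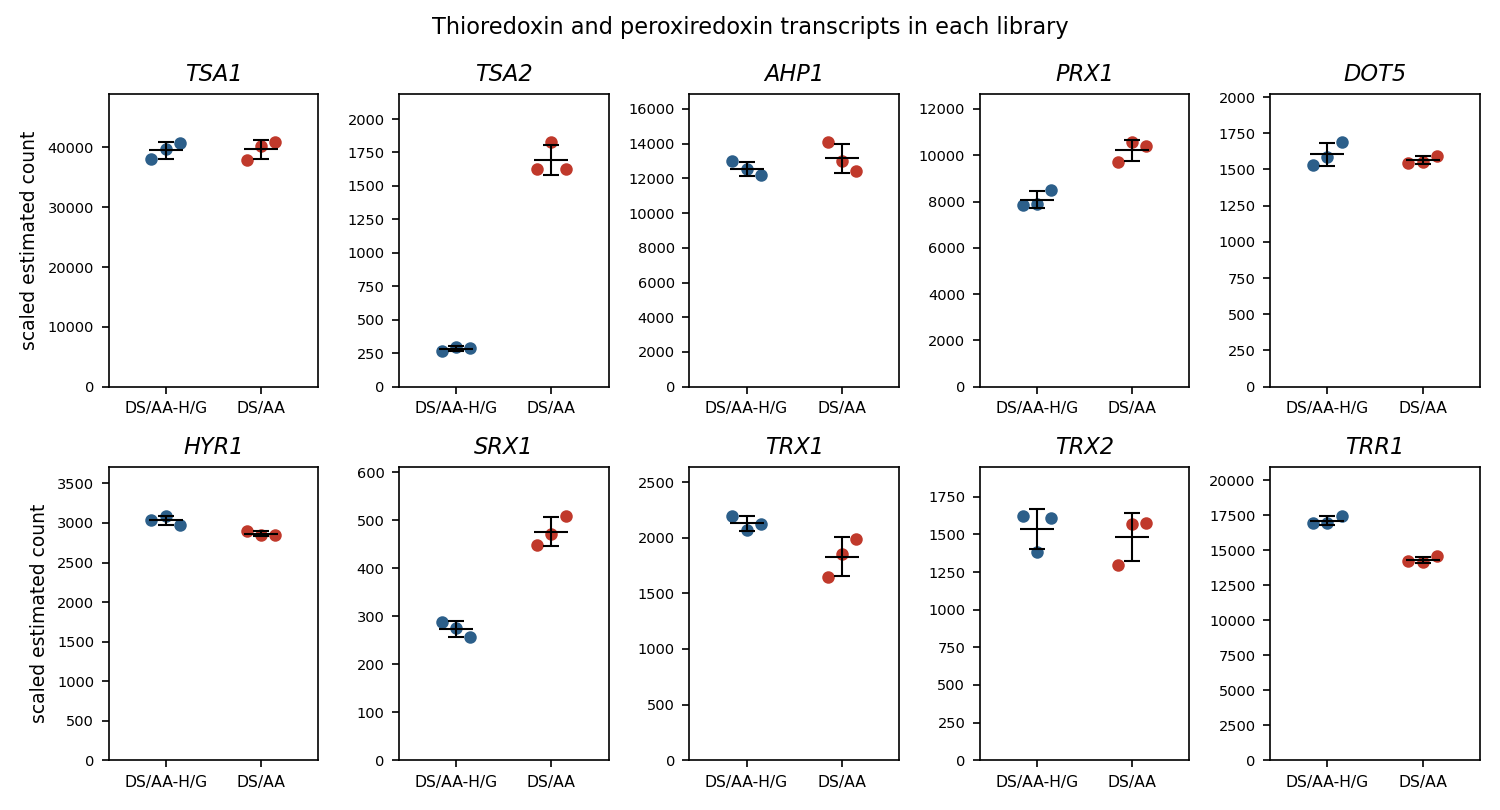
Scaled estimated counts of the 10 genes in each library, with each vertical axis starting at 0. Points are libraries, and the horizontal marks and bars are the mean and SD of 3 libraries per group. The groups are far apart for TSA2, separate for SRX1, PRX1, TRR1, TRX1 and HYR1, and overlap for TSA1, AHP1, DOT5 and TRX2.

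**Figure D4:**
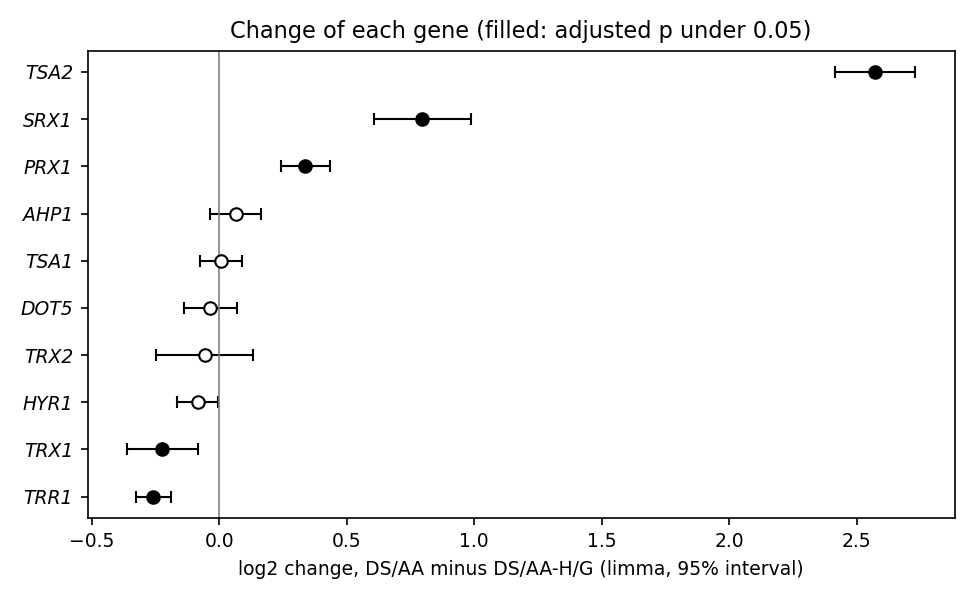
Log2 change of each gene, DS/AA minus DS/AA-H/G, with the 95% interval from limma over 3 libraries per group. Filled points passed an adjusted p of 0.05. TSA2 at 2.57, SRX1 at 0.80 and PRX1 at 0.34 lie to the right of 0, TRX1 at -0.22 and TRR1 at -0.26 to the left.

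Ordered by scaled count per kilobase of the coding span, the 10 genes in DS/AA ran from TSA1 at 67136 ± 2635 through AHP1 at 24779 ± 1598, TRR1 at 14927 ± 236 and PRX1 at 13004 ± 579. TRX1 at 5863 ± 562 and HYR1 at 5819 ± 61.6 overlapped, and were the only neighbours in that order that did. TRX2 followed at 4702 ± 504, TSA2 at 2866 ± 193, DOT5 at 2415 ± 38.1 and SRX1 at 1241 ± 80.1. In DS/AA-H/G the first 7 places were the same, with TSA1 at 66846.5 ± 2317, and no neighbours overlapped. DOT5 was there at 2475 ± 119.6, SRX1 at 713 ± 41.8 and TSA2 last at 481 ± 30.7, so TSA2 passed SRX1 and DOT5 between the groups. These levels use the length of the span in the table and are not corrected for the length of the sequenced fragments, which matters more for short genes such as TRX1, TRX2 and SRX1.

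The genes whose log2 values followed TSA2 most closely over the 6 libraries, among those at 10 or more on the CPM scale, were PBI1 (Pearson r = 0.9996), HES1 (0.9992), of the oxysterol-binding protein family, and IDP2 (0.9991), which encodes the cytosolic NADP-dependent isocitrate dehydrogenase. These rose by 3.82, 4.30 and 2.73 on the log2 scale. For TRR1, the called gene with the largest fall, they were GAL3 (r = 0.9987), a regulator of galactose genes, RPS14A (0.9986), a ribosomal protein gene, and YKR075C (0.9982), which changed by -0.39, -0.31 and -0.85. With 6 libraries in 2 groups, such values mainly express the step between the groups, and they are given as a description.

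Around the 10 genes, 8 lists of companion genes held 45 distinct genes, of which 18 rose and 10 fell. Thus 62.2% were called, where 41.8% of all tested genes were (22.1% higher, 19.7% lower). The lists were chosen with earlier results of these data known, so this contrast is a description only and was not tested. The mitochondrial thioredoxin system, TRX3 and its reductase gene TRR2, had 1 of 2 genes risen. TRX3 went from 721 ± 29.99 to 839.8 ± 78.7 (log2 change 0.22, limma adjusted p = 0.0331), but was not called without replicate 2, 3, 4 or 5, where its adjusted p was 0.139, 0.06, 0.0902 and 0.115. It was not called either under quantile normalization, at 0.0735 with an adjusted p of 0.432, or in limma without trend and robust moderation (adjusted p = 0.0801). TRR2 stood at 1276 ± 118 and 1346 ± 33.8 and was not called.

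Glutaredoxins, which use glutathione to reduce disulfides, had 2 of 8 genes risen and 1 fallen (37.5% called, against 41.8% of all tested genes). GRX1, a cytosolic glutaredoxin gene, rose from 1120.5 ± 24.5 to 1342 ± 93.96, GRX8 rose from 52.4 ± 11.9 to 88.95 ± 4.70, and GRX4, of iron regulation, fell from 1442.0 ± 36.4 to 1173 ± 54.9. GRX8 was not called under quantile normalization (adjusted p = 0.0807). Of 8 genes of glutathione synthesis and use, 2 rose and 2 fell, and 1 fell without replicate 5 or 6. GTT1, a glutathione transferase gene, rose 1.56-fold (limma adjusted p = 9.71e-07) and lies 189 bases beyond HYR1 on the opposite strand. GPX1, a peroxidase gene and homolog of HYR1, rose 1.495-fold, although not under quantile normalization (adjusted p = 0.067), and GSH2, the glutathione synthetase gene, changed by -0.17. The glutathione reductase gene GLR1, at 7895 ± 209 and 8133 ± 142, was not called.

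The list of superoxide dismutases and haem peroxidases also holds CCS1, the gene of the copper chaperone of Sod1. Of the 6 genes listed, 3 rose and 2 fell (83.3% called, against 41.8% of all tested genes). CCS1 was 1 of the 2 that fell (log2 change -0.18, limma adjusted p = 0.00276). CTT1, the cytosolic catalase gene, rose from 828 ± 57.0 to 1340 ± 121 (log2 change 0.69, limma adjusted p = 1.36e-05). The mitochondrial superoxide dismutase gene SOD2 rose by 0.20 on the log2 scale, while SOD1, its cytosolic counterpart, went down from 33277.5 ± 1887 to 25122 ± 1459.5 (limma adjusted p = 5.82e-05, log2 change -0.41).

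Of 6 genes of regulators, MSN4 went from 5118 ± 306 to 3841 ± 86.8, a fall of limma adjusted p 1.84e-05 (log2 change -0.41), and the other 5 were not called. With equal column totals 2 regulators were called higher. Under quantile normalization, and with equal column totals without CIT1, 1 was called higher. YAP1 stood at 6811 ± 3.665 and 6524 ± 149 (log2 change 0.06, limma adjusted p = 0.161). These are transcript levels, and the activity of Yap1 or Msn2, which are known to be controlled after translation, was not measured. Of 10 Yap1 target genes other than the thioredoxin and peroxiredoxin genes, 2 rose and 2 fell, so 40.0% were called, near the 41.8% of all tested genes. With equal column totals 4 were higher, and without replicate 5 or without replicate 6 only 1 was lower. OYE3, an NADPH dehydrogenase gene, rose 2.20-fold from 387 ± 38.9 to 851 ± 49.6, its paralog OYE2 fell from 15684 ± 704 to 11601 ± 436, and ATR1, a transporter gene, rose 1.47-fold. The list shares GSH1, GLR1, GPX2, GTT2 and YCF1 with that of glutathione, and CCP1 with that of haem peroxidases.

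All 4 genes of enzymes that thioredoxins reduce were called, 3 higher and 1 lower, against 41.8% of all tested genes called. MET16, which encodes the reductase of activated sulfate and needs a thioredoxin in each cycle, rose from 402.0 ± 14.3 to 1075 ± 52.0 (log2 change 1.42 ± 0.06, limma adjusted p = 1.15e-08). The methionine sulfoxide reductase gene MXR1 rose 1.35-fold and MXR2, which was outside the naming rule, 1.22-fold, while RNR1, of ribonucleotide reductase, changed by -0.23. All 7 genes of NADPH supply were called too, 5 higher and 2 lower, against 41.8% of all tested genes called. The number higher was 4 without replicate 1, 2, 4, 5 or 6 and in limma without trend and robust moderation. IDP2 rose 6.63-fold and GND2 1.98-fold, while GND1, the main 6-phosphogluconate dehydrogenase gene and paralog of GND2, fell from 35098.5 ± 549 to 22093 ± 519.6 (limma adjusted p = 1.21e-08, log2 change -0.67).

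**Figure D5:**
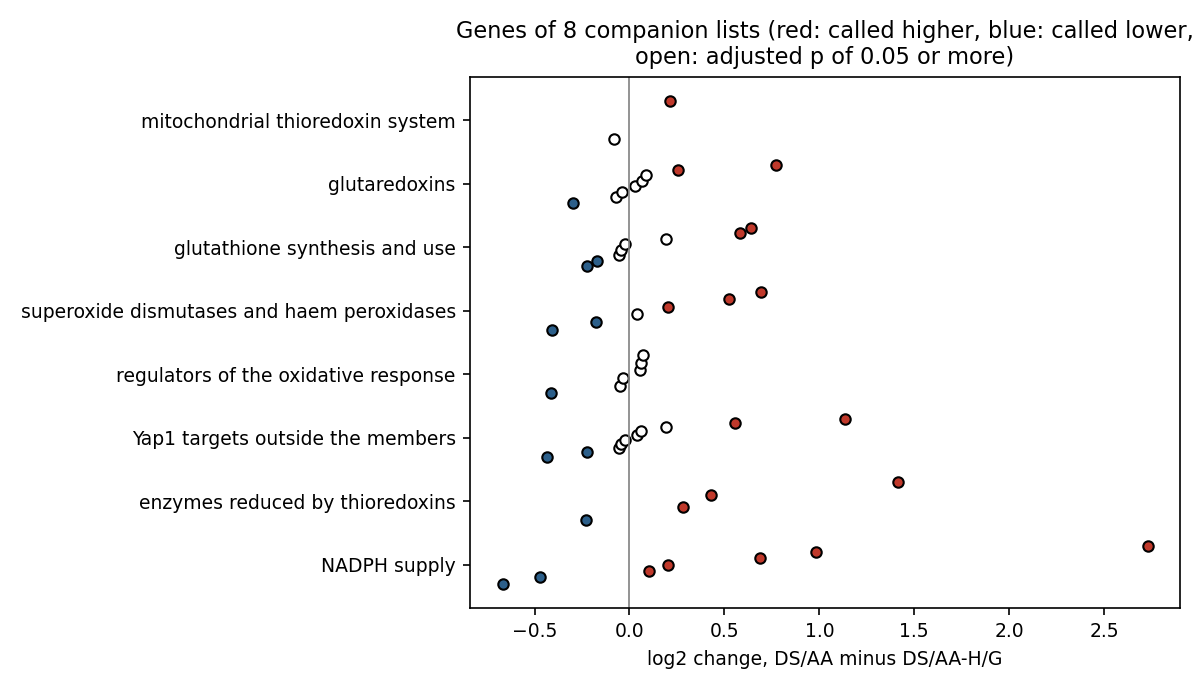
Log2 change, DS/AA minus DS/AA-H/G, of each gene in the 8 companion lists. Each point is a gene, red if called higher, blue if called lower and open if its adjusted p was 0.05 or more. All 7 NADPH supply genes and all 4 enzymes reduced by thioredoxins were called, and 1 of 6 regulators, against 41.8% of all tested genes.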

How the data were processed

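The deposited table gives scaled values, a signal per transcript that looks like the estimated reads of each library scaled by 1 factor. The low values of MFA1, MFA2 and MF(ALPHA)2 go with this, as whole multiples of the step of their library, 0.940 to 1.05. The share of all low values that are such multiples was not counted. The submitters' processing notes name Salmon 1.2.1, cutadapt 1.18, bcl2fastq 2, R 3.5.1 and build R64. For the settings, scaling method, strand setting and test of the authors, the labels and headers say nothing. Each deposited row further has a log2 ratio, a p-value, a q-value and a rank (a score).

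Columns were matched to samples by their titles. Rows at 1 or more in at least 3 of 6 samples were kept, and log2(value + 1) was fitted with limma 3.58.1 in R 4.3.3 with trend and robust moderation, and adjusted p under 0.05 was called. Fold changes are on this scale, which understates changes of low genes. The scripts were tested on simulated data. Exact permutation tests used SciPy 1.17.1. Alternatives were pseudocounts of 0.5 and 10, no filter or a minimum of 10, 3 other scalings, limma without trend and robust moderation, and leaving out each replicate. The spans of all 10 genes were the same in RefSeq R64. A planned comparison of protein sequences was replaced by one of coding sequences.

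The 10 genes and the lists were chosen with earlier results of these data known. Named companion genes were up to 3 called genes with the smallest p per list, or 2 where none was called, and other names are given for context. The 3 genes most like TSA2 and TRR1 were ranked by Pearson correlation.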

Additional observations from a re-analysis of the deposited data

How the results depend on the processing

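Over 14 alternatives, 136 of 140 values of the 10 genes kept their side of the threshold, and none changed sign while called. The exceptions were 3 values of TRX1 and 1 of HYR1. TRX1 was not called with equal column totals (-0.168, limma adjusted p = 0.0532) or in limma without trend and robust moderation (-0.223, adjusted p = 0.0745). Without replicate 4 it stood at -0.20 and was not called either (limma adjusted p = 0.0545). It stayed called with any other replicate left out, and ranged from -0.286 to -0.148 over these 6 fits. HYR1 was called at -0.127 under quantile normalization. The number of the 10 genes called lower was therefore 1 with equal column totals and 1 without trend and robust moderation, and 1 to 2 with a replicate left out, against 2 otherwise and 3 under quantile normalization. TSA2 ranged from 2.4 to 2.63, SRX1 from 0.525 to 0.852, PRX1 from 0.314 to 0.393 and TRR1 from -0.27 to -0.203, called in each. Over all genes, 747 were called lower and 1841 higher with equal column totals, and 1778 and 1034 under quantile normalization, against 1222 and 1368 as deposited, so the balance of small changes depends on the scaling. Quantile normalization puts CIT1 at 0, as the top row of each library. The cause of the other shifts was not tested. No paired analysis was possible because the groups share no replicate number.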
